A study of Mus musculus with 30 samples.

Results

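The 10 genes described here belong to the amino acid stress response of mouse liver and are followed through their mRNA levels: 10 of the 54429 genes of an age and time-of-day count table and 10 of the 55471 genes of an Egr-1 genotype count table. The 10 genes, Asns, Atf4, Atf5, Ddit3, Trib3, Chac1, Psat1, Phgdh, Fgf21 and Sesn2, were chosen by name, by symbol in the first table and by Ensembl identifier in the second, with results of these libraries already known. The comparison that led to the choice is not recorded. Test results of the 10 genes are therefore descriptions that come from fits to all genes, and none is independent support for the list. All 10 passed the filter on low counts in both tables, which kept 13948 and 14843 genes.

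Liver mRNA was sequenced from male mice fed chow ad libitum under a light cycle of 12 h on and 12 h off. The first set, called the time course, holds 18 libraries from wild-type C57BL/6J mice of 2, 6 and 12 months at zeitgeber time (ZT, hours after lights on) 1, 5, 9, 13, 17 and 21, with 1 library per age and time. The second set, called the genotype cohort, holds 6 libraries labelled KO and 6 labelled WT at the same 3 ages. KO mice were made by crossing floxed Egr-1 mice with mice that carry Cre under the albumin promoter, which acts in hepatocytes, and littermates were the WT controls. The KO lines were made on another strain and backcrossed to C57BL/6J. Within each age the cohort was collected at H and L, the times at which the study saw the highest and the lowest Egr-1 protein: ZT13 and ZT17 at 2 months, ZT9 and ZT21 at 6 months, and ZT5 and ZT21 at 12 months. Each combination of age, collection time and genotype had 1 library, so KO and WT libraries form 6 pairs that share age and collection time. The study's figure legends give several mice per group for the sequencing, while each combination has 1 library in the tables. Whether that library is 1 mouse or a pool is not stated in the sources used here, and p-values measure the spread between these libraries only.

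When amino acids run short or unfolded protein builds up, cells phosphorylate the initiation factor eIF2alpha, which lowers general translation while the mRNA of the transcription factor ATF4 is translated more. ATF4 and its partners bind response elements in genes for amino acid synthesis, uptake and the handling of damaged cells, and Asns, the gene of asparagine synthetase, is a classical target. In liver the same program reaches the hormone gene Fgf21, which is also a target of the fasting receptor PPARalpha.

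Asns (ENSMUSG00000029752) spans chr6:7675169-7693254 on the minus strand in GRCm38, and Chac1 (ENSMUSG00000027313) and Fgf21 (ENSMUSG00000030827) lie at chr2:119351229-119354381 on the plus strand and chr7:45613886-45615490 on the minus strand. Promoter windows from 250 bases before to 50 after each start were taken from RefSeq on GRCm38.p6. Only the 250 bases before each start were searched, on both strands, for TGATGNAA. It is the core of the amino acid response element that ATF4 binds together with a C/EBP partner. Asns, Chac1 and Fgf21 hold it, and 3.45% of the 32851 distinct promoter windows searched do. These windows do not cover every chromosome, and some genes, such as Atf5 with 2, have several. The 3 stretches below are shown because they carry this core, in capitals, as it reads 5′ to 3′ on the strand of the gene. They cover chr6:7693214-7693243 (minus strand), chr2:119351004-119351101 (plus strand) and chr7:45615577-45615674 (minus strand).
Asns: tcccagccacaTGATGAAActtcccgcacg
Chac1: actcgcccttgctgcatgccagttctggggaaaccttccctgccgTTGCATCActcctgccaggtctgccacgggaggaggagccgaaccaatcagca
Fgf21: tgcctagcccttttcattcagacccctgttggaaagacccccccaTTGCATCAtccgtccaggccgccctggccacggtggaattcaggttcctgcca

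The core in Asns lies at -23 to -16 from the RefSeq start, in forward orientation. It falls inside the Asns gene span given above, which begins further upstream than that start. In Chac1 and Fgf21 it lies at -193 to -186 and at -139 to -132 from the start, as the reverse complement. The EGR motif GCGNGGGCG matched 1 of the 10 genes, Atf5 at -25 to -17 from its start, against 4.70% of all windows. The E-box CACGTG, which CLOCK and BMAL1 bind, matched Fgf21 at -50 to -45 from its start, against 6.02% of all windows, and the D-box TTATGNAA matched none of the 10, against 3.07%. A match is a run of letters in this window and not a measured site.

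Libraries held 13375377 to 16557378 counted fragments in the time course and 13747706 to 21748956 in the genotype cohort. The 6-month ZT5 library had the highest summed level of 9 acute-phase genes, at 77800 CPM (counts scaled to library size, by TMM). The other 6-month libraries had 23900 to 49600 CPM, and those of the other 2 ages 4070 to 9180. The summed level of 4 neutrophil markers was 20.5 to 137 CPM at 6 months, again highest at ZT5, against 2.01 to 5.12 at 2 months and 4.03 to 10.7 at 12 months, with 0 or 1 of the 4 at 0 counts at 6 months and 1 or 2 at the other ages. In the 12-month ZT17 library 1 of 14 exocrine pancreas genes was at 0 counts, against up to 12 elsewhere in that age. In the genotype cohort the summed level of 6 hepatocyte markers was 46300 to 55900 CPM in libraries labelled KO and 74000 to 93600 in those labelled WT, without overlap. Egr1, the targeted gene, was lower in the KO library in 4 of 6 pairs, at 1.54 to 7.37 CPM in libraries labelled KO and 1.45 to 72.1 in libraries labelled WT. Its log2 change was -1.76 (SE 0.79, adjusted p = 0.324, edgeR). In the 2-month L pair it was 7.37 CPM under the KO label and 1.45 under WT. The region deleted is not given in the sources used here, so gene counts cannot check recombination, and the genotypes are named below by their labels.

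Per length of transcript, the 10 genes covered a wide range. Median levels over the time course in FPKM, here scaled CPM per kilobase of annotated exon, were 80.4 for Atf5, 39.0 for Atf4, 3.44 for Ddit3, 1.49 for Asns, 1.37 for Chac1, 1.27 for Trib3, 1.19 for Sesn2, 0.329 for Fgf21, 0.204 for Phgdh and 0.178 for Psat1. The range over all 18 libraries was 30.0 to 133 FPKM for Atf5 and 30.4 to 45.2 for Atf4. These 2 transcription factor genes overlapped each other, and both were above each of the other 8 genes in every library. From Asns to Sesn2 the ranges overlapped. Those of Ddit3 (1.71 to 5.05 FPKM) and Fgf21 (0.0 to 1.77) also overlapped that of Asns (0.574 to 6.42). The ranges of Fgf21, Phgdh and Psat1 overlapped each other. In the genotype cohort Atf5 (133 FPKM) and Atf4 (48.6) again led, followed by Ddit3 at 5.59, and Psat1 (0.22) and Phgdh (0.201) were again the lowest.

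**Figure D1:**
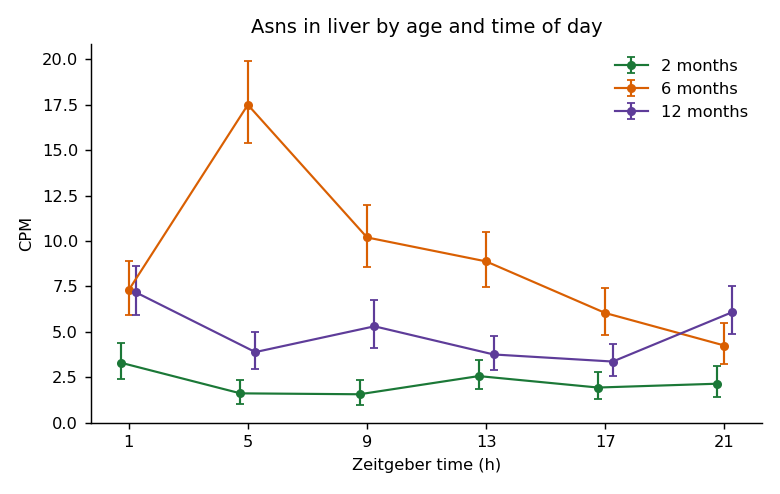
Asns level in CPM (vertical axis) at each zeitgeber time in hours (horizontal axis), 1 line per age of the time course, with bars for the exact 95% Poisson interval of the counts. The 6-month line lies above the 2-month line at every time and reaches 17.5 CPM at ZT5.

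The first question was whether the level of each gene differed with age over the day. Asns, which makes asparagine from aspartate and glutamine, was higher at 6 and 12 months than at 2 months. At ZT1, 5, 9, 13, 17 and 21 it measured 3.30, 1.62, 1.57, 2.57, 1.94 and 2.15 CPM at 2 months. At 6 months the values in the same order were 7.30, 17.5, 10.2, 8.88, 6.04 and 4.25 CPM, and at 12 months 7.17, 3.89, 5.31, 3.76, 3.37 and 6.08 CPM. All 6 libraries of each older age lay above all 6 libraries of 2 months. These levels rest on 23 to 48 counts at 2 months, 57 to 236 at 6 months and 59 to 113 at 12 months.

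Mean Asns levels were 2.19 ± 0.657 CPM at 2 months, 9.03 ± 4.66 at 6 months and 4.93 ± 1.51 at 12 months (SD, n = 6 each). With ZT as a block in edgeR's quasi-likelihood test, Asns rose 4.0-fold from 2 to 6 months (log2 change 2.00, SE 0.29, adjusted p = 0.000383) and 2.24-fold from 2 to 12 months (1.16, SE 0.30, adjusted p = 0.0194). From 6 to 12 months it fell by 0.84 on the log2 scale (SE 0.27, adjusted p = 0.0459). Over all genes tested, 13.6% were called between 6 and 2 months, 11.7% between 12 and 2 months (902 higher and 723 lower) and 16.1% between 12 and 6 months (1195 higher and 1057 lower). Scaled to library totals alone, the last 2 splits were 1220 higher to 423 lower and 1725 higher to 692 lower, and the Asns changes were 1.22 (adjusted p = 0.0145) and -0.78 (adjusted p = 0.0644). Genes of which all 6 libraries exceeded those of 2 months without overlap made up 2.42% at 6 months and 2.29% at 12 months.

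Single libraries bear on the later steps. The fall from 6 to 12 months passed in 2 of 8 fits that left out a time or a library, and it was -0.52 without the 6-month ZT5 library (adjusted p = 0.138) and -0.81 without ZT9 (adjusted p = 0.119). It did not pass without ZT13 (-0.77, adjusted p = 0.121), without ZT17 (-0.84, adjusted p = 0.0817) or without the 12-month ZT17 library alone (-0.81, adjusted p = 0.0809). Likewise without ZT9 at all ages the change from 2 to 12 months was 1.06 (adjusted p = 0.0798). The rise from 2 to 6 months passed in all 8 fits that left out a time or a library, with log2 changes of 1.67 to 2.17. The acute-phase and neutrophil markers were highest at 6 months, and in the same ZT5 library as Asns. Summed cholangiocyte markers were 37.5 to 144 CPM at 6 months, highest at ZT13, against 29.5 to 47.6 at 2 months and 16.4 to 28.2 at 12 months, with none of the 5 markers at 0 counts. Of the 4 tested 3 rose between 6 and 2 months, among them Spp1 (1.56, SE 0.28, adjusted p = 0.00183). Macrophage markers rose in 3 of 6, with Marco at 1.40 (SE 0.40, adjusted p = 0.0278), while their sums overlapped, at 379 to 596 CPM at 6 months and 377 to 433 at 2 months. The part of these markers in the Asns level was not tested.

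The other biosynthetic genes were near the floor of detection. Psat1 and Phgdh, which carry out early steps of serine synthesis, had 3 to 22 and 1 to 15 counts per library in the time course. Psat1 means were 0.668 ± 0.141 CPM at 2 months, 1.04 ± 0.311 at 6 months and 0.80 ± 0.526 at 12 months (SD, n = 6 each), and Phgdh means were 0.327 ± 0.187, 0.480 ± 0.401 and 0.604 ± 0.277 CPM. Neither passed in any age comparison: the log2 changes between 6 and 2 months were 0.64 (SE 0.36, adjusted p = 0.277) for Psat1 and 0.50 (SE 0.55, adjusted p = 0.612) for Phgdh.

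Fgf21, a liver hormone of fasting and amino acid lack, had the widest age range. Its counts at ZT1, 5, 9, 13, 17 and 21 were 3, 3, 5, 3, 1 and 0 at 2 months, 3, 8, 4, 4, 9 and 3 at 6 months, and 7, 7, 13, 30, 17 and 21 at 12 months. In CPM the range was 0.0 to 0.341 at 2 months, 0.223 to 0.611 at 6 months and 0.444 to 1.68 at 12 months. The 12-month libraries lay above the 2-month libraries without overlap, as for 2.29% of all genes tested, whereas 6 months overlapped both. Fgf21 passed the filter on low counts only through libraries of 12 months. Its rises to that age and the lack of overlap therefore describe a gene admitted by the age where it was highest.

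Fgf21 rose 5.72-fold from 2 to 12 months (log2 change 2.52, SE 0.52, adjusted p = 0.00525) and 2.66-fold from 6 to 12 months (1.41, SE 0.47, adjusted p = 0.0486). The first passed in all 8 fits that left out a time or a library. The second passed in 3 of 8, and without ZT13 it was 1.12 (adjusted p = 0.177). All 8 fits used the genes kept with every library in place. They carry the same admission through 12 months and are no further support for either rise. Between 2 and 6 months the log2 change was 1.10 (SE 0.59, adjusted p = 0.245). Summed lymphocyte markers were 36.5 to 286 CPM at 12 months, against 9.47 to 16.7 at 2 months and 9.44 to 13.9 at 6 months, without overlap and with none of the 5 at 0 counts. Among them Ighm, the immunoglobulin heavy chain, rose by 2.73 from 2 to 12 months (SE 0.35, adjusted p = 0.000116). Their part in the 12-month levels of Fgf21 and Asns was not tested.

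Of the 2 genes that rose by 12 months, Asns had its highest mean at 6 months and Fgf21 at 12 months. The steps from 6 to 12 months behind this order lost the call in most fits that left out a time or a library. The 2 genes were not compared by a test. Their rises from 2 to 12 months share the same 6 libraries of 2 months. In the plot of changes over the 10 genes, Asns stands at 2.00 and 1.16 in the 2 time-course panels and Fgf21 at 1.10 and 2.52.

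**Figure D2:**
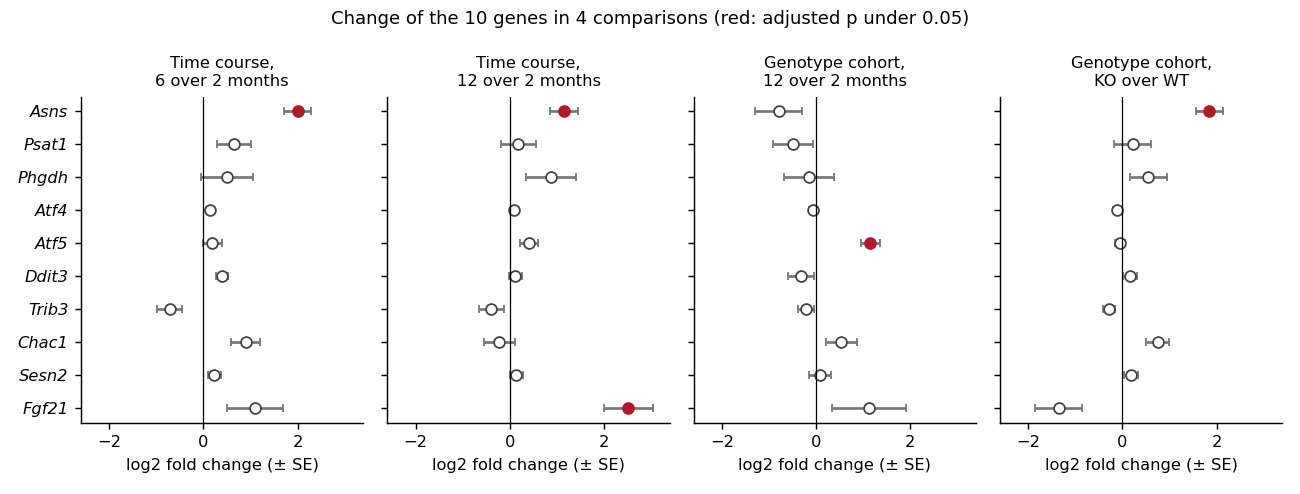
Log2 fold change with its SE (horizontal axis) of each of the 10 genes (vertical axis) in 4 comparisons, with filled red points at adjusted p under 0.05. Asns passed in both time-course panels and in KO over WT, Fgf21 in 12 over 2 months of the time course and Atf5 in 12 over 2 months of the genotype cohort.

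Chac1, an enzyme that breaks down glutathione, had its highest value in the same library as Asns. It measured 1.93, 3.67, 3.48, 2.11, 1.07 and 1.19 CPM at 2 months, 4.62, 12.3, 3.71, 3.58, 2.38 and 0.969 CPM at 6 months, and 3.43, 1.62, 3.46, 1.35, 1.43 and 0.353 CPM at 12 months, from ZT1 to ZT21. The 3 ages overlapped, and the 6-month library was the highest of the 3 at every time except ZT21. Between 6 and 12 months the log2 level of Chac1 fell by 1.12 (SE 0.32, adjusted p = 0.0249), passing in 5 of 8 fits that left out a time or a library. Without the 6-month ZT5 library the change was -0.80 (adjusted p = 0.0763), and without ZT13 it was -1.07 (adjusted p = 0.0741). Between 6 and 2 months the change was 0.90 (SE 0.31, adjusted p = 0.07), and DESeq2 gave 0.86 (adjusted p = 0.0433).

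None of the other 5 genes passed in an age comparison of the time course. Atf4, the transcription factor at the centre of the response, measured 86.0 ± 9.05 CPM at 2 months, 94.6 ± 9.20 at 6 months and 92.0 ± 7.17 at 12 months (SD, n = 6 each), with log2 changes of 0.14 (SE 0.08, adjusted p = 0.301) and 0.10 (SE 0.08, adjusted p = 0.457) against 2 months. Its activity is set mainly by translation, which mRNA counts do not measure. Ddit3, which encodes CHOP, was higher at 6 than at 2 months at 6 of 6 times, by 0.39 (SE 0.13, adjusted p = 0.0648). Trib3, a pseudokinase that dampens ATF4 and CHOP, was lower at 6 than at 2 months at 5 of 6 times, by -0.72 (SE 0.27, adjusted p = 0.09).

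For Sesn2, a leucine sensor upstream of mTORC1, the log2 changes against 2 months were 0.23 (SE 0.14, adjusted p = 0.324) at 6 months and 0.14 (SE 0.14, adjusted p = 0.568) at 12 months. For Atf5, a relative of Atf4 linked to mitochondrial stress, they were 0.19 (SE 0.20, adjusted p = 0.592) and 0.40 (SE 0.19, adjusted p = 0.205). Over the 10 genes the median log2 change was 0.44 at 6 months against 0.01 for all genes tested, and 0.16 at 12 months against 0.00. Of the 10, 1 was called between 6 and 2 months, 2 between 12 and 2 months and 3 between 12 and 6 months, against 13.6%, 11.7% and 16.1% of all genes tested.

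The second question was whether the genes followed a 24-h rhythm. A cosine of 24 h fitted to all 3 ages together, with age as a block, was called for 4 of the 10 genes and for 15.6% of all genes tested. These 4 were Atf5, Trib3, Chac1 and Ddit3, and their peaks fell at 3 different parts of the day.

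Atf5 peaked early in the light phase. From ZT1 to ZT21 it measured 192, 151, 70.3, 59.9, 131 and 218 CPM at 2 months, 202, 265, 161, 82.2, 71.7 and 159 CPM at 6 months, and 223, 223, 167, 101, 109 and 241 CPM at 12 months. The lowest value at each age was at ZT13 or ZT17. The shared rhythm had an amplitude (the distance from the mean to the peak) of 0.75 on the log2 scale and a peak at ZT1.47 (adjusted p = 0.000796).

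Trib3 and Chac1 peaked later in the light phase, with fitted peaks at ZT6.3 and ZT6.35. Trib3 measured 2.61, 10.9, 5.94, 3.04, 1.94 and 2.78 CPM at 2 months, 1.79, 5.20, 1.85, 3.90, 1.43 and 1.19 CPM at 6 months, and 3.43, 8.83, 4.27, 1.46, 1.60 and 1.48 CPM at 12 months. Its highest library was ZT5 at every age. The shared amplitude was 1.06 for Trib3 (adjusted p = 0.00092) and 1.03 for Chac1 (adjusted p = 0.00409) on the log2 scale. Without the 2-month libraries Chac1 no longer passed, at an amplitude of 1.07 (adjusted p = 0.0743).

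Ddit3 peaked in the dark phase, at ZT18.8, with an amplitude of 0.42 (adjusted p = 0.0041). Its lowest library was ZT9 at 2 and 6 months, at 2.93 and 4.77 CPM, and ZT5 at 12 months, at 3.31 CPM. The highest was ZT13 at 2 months (6.43 CPM), ZT21 at 6 months (8.65 CPM) and ZT17 at 12 months (7.08 CPM). Without the 6-month libraries its amplitude was 0.39 (adjusted p = 0.0666). In the current annotation a second identifier overlaps Ddit3 and the time-course table gives symbols only, so reads of the 2 cannot be told apart there, whereas in the genotype cohort the second one had no counts.

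**Figure D3:**
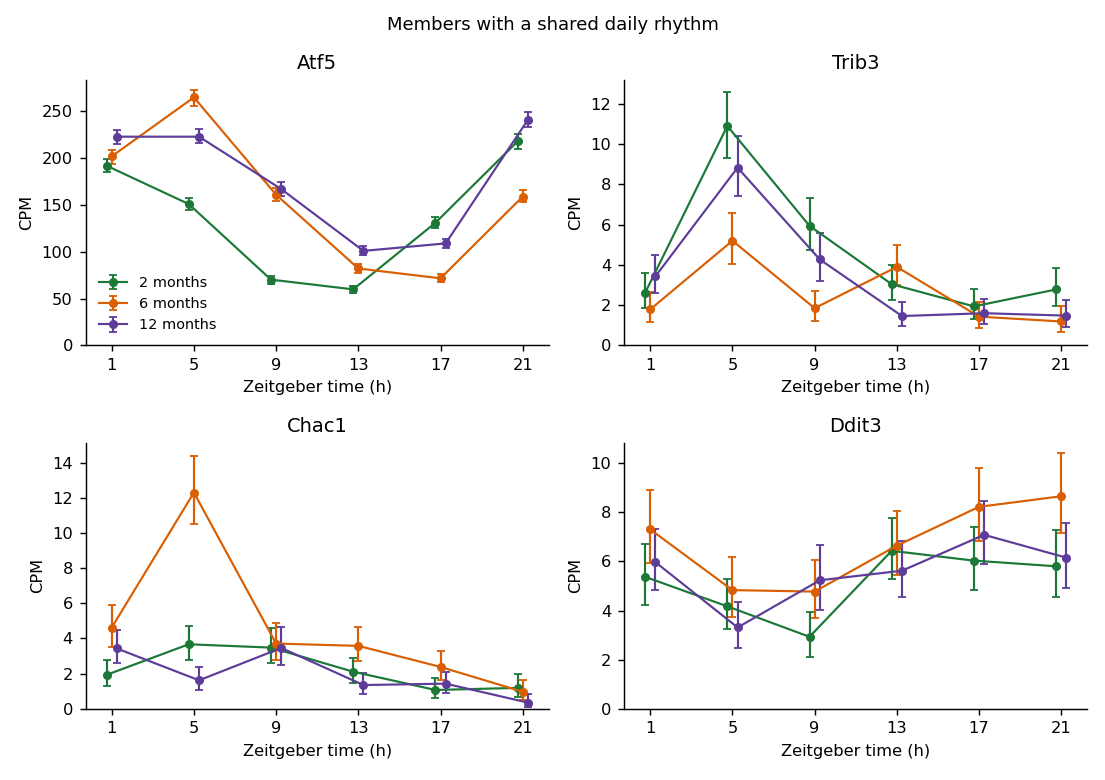
CPM (vertical axes) of the 4 genes with a shared 24-h rhythm at each zeitgeber time in hours (horizontal axes), 1 line per age, with exact 95% Poisson intervals of the counts. Atf5 is lowest at ZT13 or ZT17, Trib3 is highest at ZT5 at each age, Chac1 reaches 12.3 CPM at ZT5 of 6 months and Ddit3 is highest between ZT13 and ZT21.

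Fitted within each age, the rhythm was called for Atf5 at all 3 ages. Its amplitude was 0.96 with a peak at ZT23.3 at 2 months (adjusted p = 0.00123), 0.92 with a peak at ZT3.38 at 6 months (adjusted p = 0.00146) and 0.66 with a peak at ZT1.8 at 12 months (adjusted p = 0.0241). The change of rhythm between 6 and 2 months, tested directly, measured 0.95 and did not pass in edgeR (adjusted p = 0.0657), and passed in DESeq2 (adjusted p = 0.000211). Without the 12-month ZT17 library, the amplitude at 12 months was 0.58 (adjusted p = 0.101).

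At 6 months Asns was also called, with an amplitude of 0.83 and a peak at ZT7.13 (adjusted p = 0.0499). Without ZT5 of 6 months the amplitude was 0.58 (adjusted p = 0.296). The call was also lost without the 12-month ZT17 library (adjusted p = 0.0517), with DESeq2 size factors (adjusted p = 0.0513) and with library totals (adjusted p = 0.053), while DESeq2 itself gave adjusted p = 0.00994. Trib3 was called at 12 months, with an amplitude of 1.33 and a peak at ZT5.26 (adjusted p = 0.0324), and without the 12-month ZT17 library it was 1.65 (adjusted p = 0.0639). At 2 months the Trib3 amplitude was 1.12 (adjusted p = 0.0534).

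Of the 10 genes, 1 was called at 2 months, 2 at 6 months and 2 at 12 months, against 4.85%, 4.79% and 3.6% of all genes tested. A change of rhythm was called for none of the 10 by edgeR, between 6 and 2 months (0.108% of all genes) or between 12 and 2 months (0.0%). At an unadjusted p under 0.05, 2 and 1 of the 10 passed, and DESeq2 called 1 and 0. A rhythm that differed between ages was thus not detectable for the other 9 genes by either tool with 6 libraries per age.

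**Figure D4:**
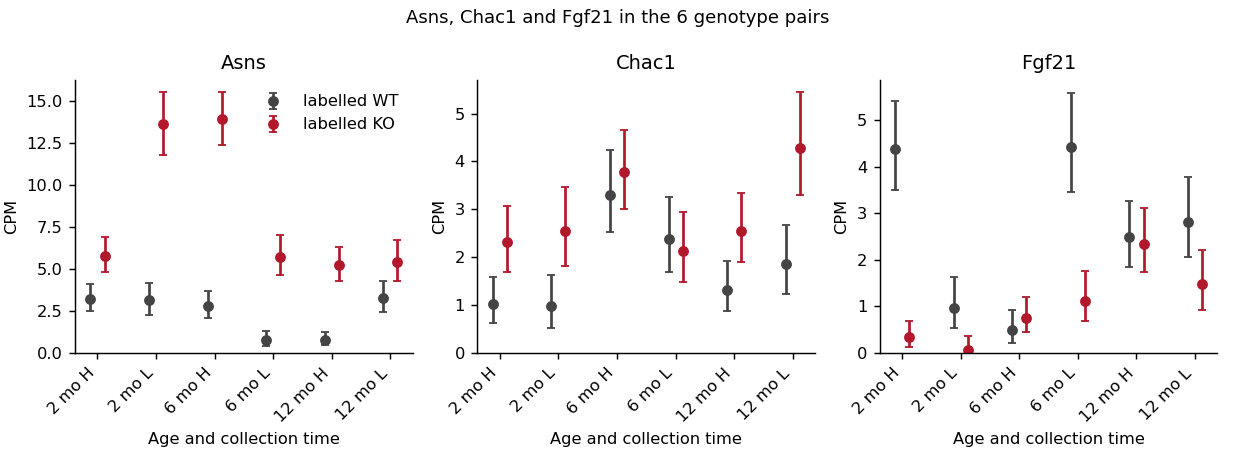
CPM (vertical axes) of Asns, Chac1 and Fgf21 in each pair of libraries labelled WT (grey) and KO (red), by age in months and collection time H or L (horizontal axes), with exact 95% Poisson intervals of the counts. Asns is higher under the KO label in 6 of 6 pairs, Chac1 in 5 and Fgf21 in 1.

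The third question was whether the genes differed by genotype. Asns was higher in the library labelled KO in 6 of 6 pairs, as were 4.76% of all genes tested. In the pairs 2-month H and L, 6-month H and L, and 12-month H and L it measured 3.22, 3.12, 2.82, 0.749, 0.781 and 3.27 CPM under the WT label and 5.77, 13.6, 13.9, 5.73, 5.23 and 5.41 CPM under the KO label. Every KO library exceeded every WT library, which held for 0.384% of all genes tested. The ratio of KO to WT was 1.79, 4.36, 4.93, 7.65, 6.70 and 1.66 in the same order, widest in the 6-month L pair and narrowest in the 12-month L pair.

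The mean was 8.27 ± 4.24 CPM under KO and 2.32 ± 1.22 under WT (SD, n = 6 each), from 81 to 313 and 12 to 63 counts. With the pair as a block Asns was 3.61-fold higher in KO (log2 change 1.85, SE 0.28, adjusted p = 0.0175, edgeR), the only one of the 10 genes called, while 1.36% of all genes tested were. Scaled to library totals alone, the median gene was shifted to 0.11 and the Asns change was 1.98 (adjusted p = 0.0116). The calls over all genes were then 358 higher and 64 lower, against 95 higher and 107 lower with TMM scaling. Without the pair block the log2 change was 1.84 (adjusted p = 0.109), and without the pair 6-month H or 2-month L it was 1.76 (adjusted p = 0.0645) or 1.80 (adjusted p = 0.0538). From H pairs alone it was 1.87 (adjusted p = 0.181) and from L pairs alone 1.81 (adjusted p = 0.0816).

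The hepatocyte markers were lower under the KO label, without overlap, in the same libraries. Alb, the gene whose promoter drives the Cre, fell by 0.89 on the log2 scale (SE 0.10, adjusted p = 0.00747), and 3 of 6 hepatocyte markers were called lower. In bulk liver, fewer cells of a type and less RNA per cell cannot be told apart. Acute-phase sums overlapped between genotypes, at 3950 to 7740 CPM in KO and 4960 to 7530 in WT, as did neutrophil sums, at 0.818 to 30.3 and 3.37 to 23.7, with up to 2 of the 4 markers at 0 counts in either group. The neutrophil sum was highest in the 2-month L library labelled KO, 1 of the 2 with Asns above 13 CPM. Among WT libraries it was highest in 6-month H, where Asns was 2.82 CPM. Exocrine pancreas sums overlapped, at 30.0 to 49.7 CPM in KO and 33.0 to 50.1 in WT. Of those 14 genes, 5 to 13 and 2 to 11 were at 0 counts. Within KO the pancreas sum was highest in 6-month H and lowest in 2-month L, where Asns was 13.9 and 13.6 CPM. Within WT it was highest in 12-month L, where Asns was 3.27 CPM. Summed lymphocyte markers were higher under KO in 6 of 6 pairs, at 21.9, 26.5, 41.1, 46.4, 152 and 154 CPM against 13.2, 16.1, 22.4, 15.5, 91.5 and 87.9 under WT, in the order of pairs above. Of the 5, Ighm rose (1.05, SE 0.12, adjusted p = 0.00747). Macrophage sums overlapped, at 320 to 469 CPM in KO and 298 to 380 in WT. Cholangiocyte sums also overlapped, at 18.1 to 40.9 and 21.2 to 46.4, and 1 of those 5 markers, Sox9, fell by 1.52 (SE 0.27, adjusted p = 0.0312). The part of these marker levels in the Asns difference was not tested.

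For Egr1 the ratio of KO to WT was 0.773, 5.07, 0.0762, 0.198, 1.04 and 0.0278 in the same order of pairs. The Asns ratios beside these were 1.79, 4.36, 4.93, 7.65, 6.70 and 1.66.

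Fgf21 went the other way from Asns in 5 of 6 pairs. In the same order it measured 4.39, 0.97, 0.487, 4.43, 2.49 and 2.82 CPM under WT and 0.337, 0.0635, 0.754, 1.12, 2.35 and 1.47 CPM under KO. The lowest value, in the 2-month L library labelled KO, was 1 count, and the groups overlapped. The log2 change was -1.35 (SE 0.50, adjusted p = 0.232, edgeR), and DESeq2 gave -1.45 (adjusted p = 0.0408).

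Chac1 was higher under KO in 5 of 6 pairs, at 2.31, 2.54, 3.77, 2.13, 2.54 and 4.27 CPM against 1.02, 0.97, 3.30, 2.37, 1.32 and 1.86 in WT. The groups overlapped, and the log2 change was 0.75 (SE 0.24, unadjusted p = 0.0097, adjusted p = 0.169, edgeR). Trib3 was lower under KO in 6 of 6 pairs, as were 4.66% of all genes tested, at 2.47 to 3.75 CPM against 3.27 to 4.77. Its log2 change was -0.28 (SE 0.13, adjusted p = 0.349).

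For the transcription factor genes the log2 changes were -0.11 (SE 0.08, adjusted p = 0.574) for Atf4, -0.05 (SE 0.11, adjusted p = 0.885) for Atf5 and 0.16 (SE 0.15, adjusted p = 0.673) for Ddit3, and with library totals alone the first 2 became 0.02 and 0.08. Psat1 (0.22, SE 0.39, adjusted p = 0.854), Phgdh (0.55, SE 0.39, adjusted p = 0.551) and Sesn2 (0.18, SE 0.15, adjusted p = 0.623) did not pass either. Psat1 and Phgdh rested on 5 to 36 and 4 to 22 counts per library. The median over the 10 genes was 0.17, against -0.01 over all genes tested.

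Whether the genotype difference itself varied was tested with interaction terms. With age it was called for none of the 10 genes by edgeR, as for 0.0135% of all genes, and with collection time for none, as for 0.00674%. At an unadjusted p under 0.05, 2 and 1 of the 10 passed, and DESeq2 called 0 in both. The 2 with age were Fgf21 (unadjusted p = 0.0227) and Chac1 (unadjusted p = 0.0469). For Asns the H minus L difference of the log2 change was 0.06 (SE 0.59, adjusted p = 1.0), an error too wide to show that H and L pairs act alike.

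The genotype cohort gave a second view of age, with genotype and collection time as blocks. Asns did not repeat the order of the time course: its log2 change was -0.29 (SE 0.49, adjusted p = 0.85) between 6 and 2 months and -0.79 (SE 0.50, adjusted p = 0.359) between 12 and 2 months. Fgf21 did not pass either, at 0.52 (SE 0.81, adjusted p = 0.833, edgeR) and 1.12 (SE 0.78, adjusted p = 0.409). Mean Fgf21 levels at 2, 6 and 12 months were 2.68, 2.46 and 2.65 CPM under WT and 0.2, 0.938 and 1.91 under KO (n = 2 each). The collection times differed between ages in this cohort, so age and time of day cannot be told apart in it. The difference between the 2 cohorts was not tested.

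Atf5 was the 1 gene of the 10 called. It measured 182 and 151 CPM in WT and 194 and 166 in KO at 2 months, 224 and 381 in WT and 265 and 357 in KO at 6 months, and 430 and 419 in WT and 428 and 264 in KO at 12 months, in the order H and L. The 12-month libraries lay above the 2-month libraries without overlap, as for 8.27% of all genes tested. Atf5 was 2.22-fold higher at 12 than at 2 months (log2 change 1.15, SE 0.20, adjusted p = 0.005), when 11.3% of all genes were called (727 higher and 945 lower, or 938 and 591 with library totals alone). It passed in all 12 fits that left out 1 library, and from WT libraries alone the change was 1.35 (adjusted p = 0.147). The 2-month libraries were collected at ZT13 and ZT17, the times at which the lowest Atf5 library of each age fell in the time course. Those of 12 months were collected at ZT5 and ZT21, so age and time of day cannot be told apart in this change. With ZT as a block in the time course, the Atf5 change between these ages was 0.40 (SE 0.19, adjusted p = 0.205, edgeR).

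Between 6 and 2 months its change was 0.82 (SE 0.20, adjusted p = 0.058, edgeR), and DESeq2 gave adjusted p = 0.00209. None of the 10 genes was called by edgeR between 6 and 2 months, when 2.43% of all genes were, or between 12 and 6 months, when 0.0202% were. At an unadjusted p under 0.05, 4 and 0 of the 10 passed, and DESeq2 called 1 and 0. Summed lymphocyte markers in this cohort were 87.9 to 154 CPM at 12 months and 13.2 to 26.5 at 2 months, and their part in the Atf5 level was not tested.

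**Figure D5:**
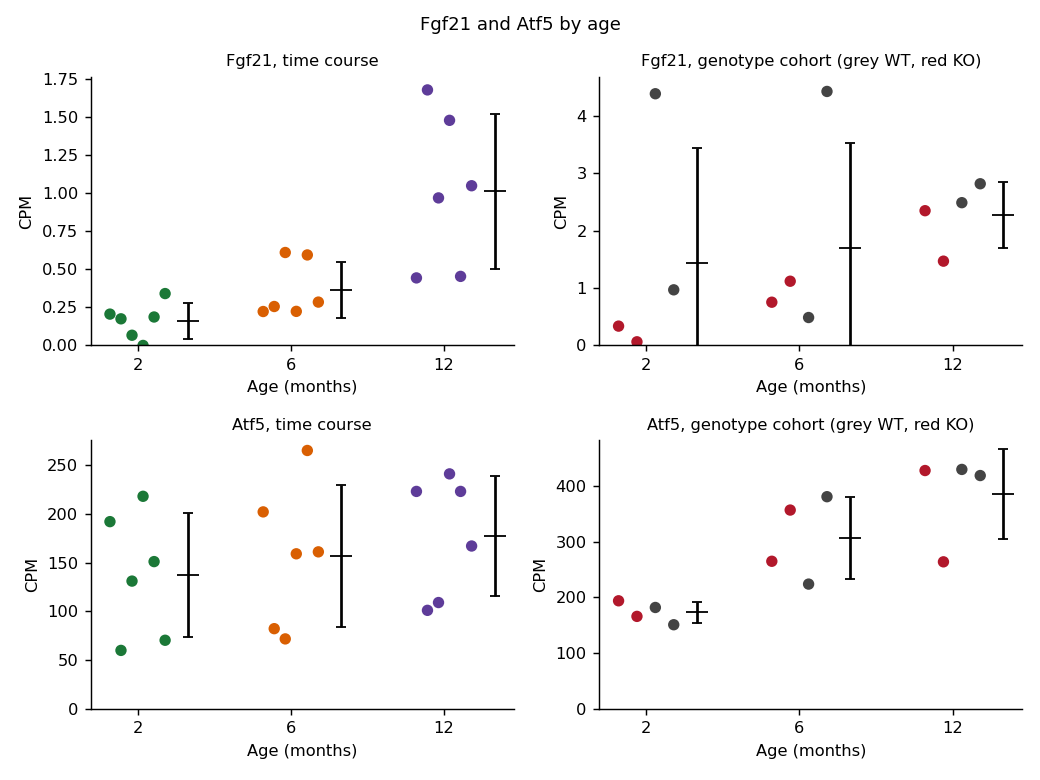
CPM (vertical axes) of Fgf21 and Atf5 in single libraries (points) by age in months (horizontal axes) in the time course and in the genotype cohort (grey WT, red KO), with mean and SD beside each age and SD bars cut at 0. Fgf21 of the time course is 0.444 to 1.68 CPM at 12 months, and Atf5 of the genotype cohort is 264 to 430 CPM at 12 months and 151 to 194 at 2 months. Fgf21 of the genotype cohort is 1.47 to 2.82 CPM at 12 months and 0.0635 to 4.39 at 2 months.

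Other genes of the pathway were followed through lists chosen, like the 10 genes, with earlier results known. Between 6 and 2 months of the time course, when 13.6% of all genes were called (6.83% higher), 2 of 13 measured transcription factors and regulators of the response rose: Ppp1r15a, the phosphatase subunit that reverses eIF2alpha phosphorylation (0.42, SE 0.11, adjusted p = 0.0144), and Cebpg, an ATF4 partner (0.36, SE 0.10, adjusted p = 0.0281). None of 7 genes of the eIF2alpha kinases and their activators was called there by edgeR or DESeq2, with 2 at an unadjusted p under 0.05. Of 17 serine, glycine and one-carbon enzymes, 1 rose, the mitochondrial folate enzyme Mthfd2 (1.37, SE 0.31, adjusted p = 0.00839), and 7 fell, among them Gpt2 (-0.72, SE 0.11, adjusted p = 0.000669) and Gldc, which splits glycine (-0.80, SE 0.14, adjusted p = 0.00154).

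In the same comparison, with 13.6% of all genes called, 2 of 11 amino acid transporters rose, Slc7a5, a carrier of large neutral amino acids (1.30, SE 0.32, adjusted p = 0.0141), and Slc1a5, a glutamine carrier (0.78, SE 0.24, adjusted p = 0.04). Another 2 fell, Slc7a2 (-0.83, SE 0.12, adjusted p = 0.000366) and Slc38a4 (-0.50, SE 0.13, adjusted p = 0.0153). Of 20 cytosolic aminoacyl-tRNA synthetases 1 rose, Wars (0.53, SE 0.15, adjusted p = 0.025). Of 18 ER chaperones and related targets none was called by edgeR or DESeq2, with 2 at an unadjusted p under 0.05. All 9 acute-phase genes and both measured neutrophil markers rose between the same ages.

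Between 12 and 2 months 11.7% of all genes were called (6.47% higher). None of the 13 regulators was called by edgeR (6 at an unadjusted p under 0.05, and 1 by DESeq2), and 12 of 18 ER chaperones fell, among them Manf (-0.91, SE 0.19, adjusted p = 0.0051), Hspa5 (-0.88, SE 0.19, adjusted p = 0.00599) and Calr (-0.67, SE 0.14, adjusted p = 0.00603). Of 14 fasting and PPARalpha targets 5 rose and 1 fell. Beside Fgf21 itself, which is on that list, Cyp4a14, a fatty acid hydroxylase, rose by 2.10 (SE 0.32, adjusted p = 0.000534) and Vnn1 by 0.62 (SE 0.14, adjusted p = 0.00814). Slc1a5 rose by 0.77 (SE 0.24, adjusted p = 0.0453), 1 of 11 transporters to do so.

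Between KO and WT none of the genes of these pathway lists was called: 0 of 14 regulators, 0 of 7 kinase genes, 0 of 18 serine, glycine and one-carbon enzymes, 0 of 11 transporters, 0 of 20 synthetases, 0 of 18 ER chaperones, 0 of 6 mitochondrial stress genes and 0 of 14 fasting targets, by edgeR. At an unadjusted p under 0.05 the counts were 2, 0, 2, 1, 2, 0, 2 and 3, and DESeq2 called 1 synthetase and 1 fasting target. Over all genes tested 1.36% were called.

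The genes with a pattern most like Asns were sought by Pearson's r of log2(CPM + 0.5), as a description over libraries that share ages and scaling. Over the 18 time-course libraries and 12470 genes that averaged 1 CPM or more they were Mmgt2 (0.90), S100a9, a neutrophil protein (0.89), A2ml1 (0.89), Gas2l1 (0.88) and Slc3a1, a cystine transporter subunit (0.88). Over the 12 genotype libraries and 12708 such genes they were Tlr7, a receptor for single-stranded RNA (0.93), Blmh (0.91), Ly6a (0.91), Psmb9, an immunoproteasome subunit (0.90), and Apol9a (0.89). None of the other 9 genes of the response was among them. Psat1 and Phgdh in both sets, and Fgf21 in the time course, were below 1 CPM and could not be ranked. Of those ranked, the closest was Chac1 in the time course, at r = 0.49 and rank 1013. In the genotype cohort Fgf21 stood at r = -0.67. Chac1 stood at 0.45 and rank 1050 there, and Phgdh, too low in level to be ranked, at 0.59.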

How the data were processed

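The authors deposited 2 tables of read counts per gene, not normalized, from poly(A) liver libraries sequenced paired-end. Per the labels, reads were trimmed with fastp, aligned to mm10 with HISAT2 and counted with featureCounts. Versions and strand setting are not given in the sources used here. The time-course table names genes by symbol and the genotype table by Ensembl identifier, and no column was left out.

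Counts were filtered with filterByExpr, scaled by TMM and tested with edgeR 4.0.16 (quasi-likelihood) in R 4.3.3, with Benjamini-Hochberg adjustment over all genes tested and a threshold of 0.05. The blocks were ZT for age in the time course, age for the shared rhythm (cosine and sine of 24 h), and the pair for genotype. Age in the genotype cohort was fitted with genotype and collection time. The fits were tested on simulated counts. CPM intervals are exact Poisson at 95% and cover counting error only. FPKM is TMM-scaled CPM per kilobase of summed exons in GENCODE M21, and all 10 genes matched it by symbol or identifier. Other cell types were followed by summed CPM of marker lists.

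The 10 genes and all gene lists were chosen with earlier results of these data known. Named genes are the 10 genes, up to 3 per direction with the smallest p among the called genes of each list, the 5 genes most correlated with Asns in each table at a mean of at least 1 CPM, and Egr1. Alternatives were DESeq2 size factors, library totals, no low-count filter, DESeq2 1.42.0, a cosine in place of the ZT block, no pair block, H or L pairs alone, WT libraries alone, and leaving out each ZT, age, pair or library. Leaving out the 6-month ZT5 or 12-month ZT17 library was chosen after seeing the data. The authors deposited no columns of their own comparisons. Promoters came from the RefSeq table on GRCm38.p6, in which all 10 genes were searched.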

Additional observations from a re-analysis of the deposited data

Results flagged for a closer look

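Among 50 groups of 6 libraries given a test for a stray value, 1 in 20 of which chance would mark, 2 stood out, and both were Atf4. In WT libraries of the genotype cohort the 6-month L library measured 94.1 CPM, against 116 to 118 in the other 5, a gap of 0.918 of the whole range, above Dixon's limit for 6 values. In the 12-month time course the ZT17 library measured 78.5 CPM, against at least 91.0 in the others, a gap of 0.634 of the range. In that library 1 of 14 exocrine pancreas genes was at 0 counts, against up to 12 elsewhere at 12 months, and the part of this in its Atf4 level was not tested.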

How the results depend on the processing

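Of 1330 values of single genes under alternatives, 1256 kept direction and side of the threshold, 30 lost and 19 gained the call, and 25 changed sign, none of the 25 being called. On the log2 scale, changed signs with library totals were Atf4 at 0.03 between 12 and 6 months, Atf5 at 0.08 and Atf4 at 0.02 between KO and WT, and Atf4 at 0.01 between 12 and 2 months of the genotype cohort. From H pairs only, KO against WT gave Atf5 0.11, Ddit3 -0.13 and Psat1 -0.14. From WT libraries only, Sesn2 was -0.09 and Fgf21 -0.34 between 6 and 2 months, and Phgdh 0.35, Fgf21 -0.11 and Atf4 0.0 between 12 and 2 months. Leaving out a time or library gave, in the time course, Atf5 0.0 to 0.4 (6 against 2 months), Ddit3 -0.01 to 0.2 and Psat1 -0.11 to 0.37 (12 against 2) and Atf4 -0.09 to 0.02 (12 against 6). In the genotype cohort it gave Sesn2 -0.03 to 0.35, Asns -0.8 to 0.1 and Fgf21 -0.23 to 1.74 (6 against 2), and Phgdh -0.39 to 0.37 and Sesn2 -0.07 to 0.33 (12 against 2). Leaving out a pair gave KO over WT of -0.1 to 0.08 for Atf5 and 0.0 to 0.6 for Psat1.

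Counts of called genes moved by more than 1.5 times as follows. Leaving out a time or library gave 1192 to 1873 (1892 in all libraries), 953 to 1976 (1625) and 1290 to 2376 (2252) for age 6 against 2, 12 against 2 and 12 against 6 months. For the shared rhythm, leaving out an age or library gave 750 to 2484 (2170), and for the rhythm at 6 and 12 months 277 to 627 (668) and 256 to 598 (502). The change of rhythm between 6 and 2 months (15) gave 3 to 16, or 8 with library totals, 133 without the low-count filter and 208 with DESeq2, and that between 12 and 2 months (0 by edgeR, 642 at an unadjusted p under 0.05) gave 4 without the filter and 14 with DESeq2. KO against WT (202) gave 45 to 146 leaving out a pair, 422 with library totals, 636 without the filter, 430 with DESeq2, 21 without the pair block, 2 from H and 58 from L pairs. Genotype by age (2) gave 1, 100 and 9 with library totals, no filter and DESeq2, and by collection time (1) 117 and 20 with the last 2. Age in the genotype cohort gave 53 to 393 (361) and 798 with DESeq2 for 6 against 2, 846 to 1751 (1672) for 12 against 2, and 1 to 145 (3), 81 without the filter and 301 with DESeq2 for 12 against 6. WT libraries alone gave 0 by edgeR (1188 at an unadjusted p under 0.05; DESeq2 was not run on them), 34 and 1. The cause of these moves was not tested, beyond fewer libraries or more genes entering the fit.

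With 1 library per cell, depth limits Phgdh, Psat1 and Fgf21 most, whose time-course counts were at most 15, 22 and 30 a library. Without the pair block Asns lost its call between KO and WT (log2 change 1.84, adjusted p = 0.109), and the pairs come from the shared age and collection time of the labels.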

Other observations

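Lists of neighbouring pathways moved with age in the genotype cohort where most of the 10 genes did not pass. Between 12 and 2 months 9 of 20 cytosolic aminoacyl-tRNA synthetases fell, among them Wars (-0.50, SE 0.09, adjusted p = 0.00643) and Iars (-0.48, SE 0.09, adjusted p = 0.00895), and 5 of 11 amino acid transporters fell, with Slc38a3 at -0.86 (SE 0.16, adjusted p = 0.00731). Of 18 ER chaperones and related targets 12 fell, led by Creld2 (-2.38, SE 0.24, adjusted p = 0.000413) and Hyou1 (-1.23, SE 0.14, adjusted p = 0.000626), and 5 of 6 mitochondrial stress genes fell, with Hspd1 at -0.45 (SE 0.08, adjusted p = 0.00636). Of 14 regulators of the stress response 2 rose, Gdf15, a stress hormone (1.34, SE 0.33, adjusted p = 0.0231), and Nfe2l2 (0.52, SE 0.10, adjusted p = 0.00601), and 2 fell, Eif4ebp1 (-0.51, SE 0.11, adjusted p = 0.0141) and Ppp1r15a (-0.50, SE 0.13, adjusted p = 0.0343). All genes tested were called at 11.3% in that comparison, by edgeR, and collection times differ between the ages.

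The shared 24-h rhythm was called for 7 of 17 serine, glycine and one-carbon enzymes, 5 of 11 transporters, 4 of 20 synthetases, 5 of 18 ER chaperones, 2 of 6 mitochondrial stress genes, 6 of 14 fasting targets and 0 of 7 genes of the eIF2alpha kinases, the last by edgeR and by DESeq2, with 0 at an unadjusted p under 0.05. All genes tested were called at 15.6%. The transporters Slc7a2 (amplitude 0.65, peak ZT8.4, adjusted p = 3.72e-05) and Slc38a3 (0.61, ZT8.89, adjusted p = 0.000158) peaked late in the light phase. Gldc (0.82, ZT23.3, adjusted p = 6.14e-06) and the synthetase Tars (0.65, ZT24.0, adjusted p = 8.92e-06) peaked at the end of the dark phase. Among immediate-early genes 4 of 7 rose between 6 and 2 months, when 13.6% of all genes were called (6.83% higher), with Fos at 2.01 (SE 0.39, adjusted p = 0.00302), and 1 of 6 mitochondrial stress genes fell, Hspa9 (-0.26, SE 0.08, adjusted p = 0.0288). Between KO and WT, with 1.36% of all genes called, 1 of 9 acute-phase genes fell, Fgg (-0.41, SE 0.08, adjusted p = 0.0396).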
